A study of Mus musculus with 9 samples.

Results

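The transcripts described here encode 10 proteins of the mouse egg: the subcortical maternal complex, proteins that bind it, and NLRP proteins of the oocyte. They were chosen by symbol from the deposited tables, where Nlrp5, Ooep, Tle6, Khdc3, Padi6, Zbed3, Nlrp2, Nlrp4f, Nlrp9b and Nlrp14 were 10 of 52025 listed genes. All 10 were among the 15495 genes with a mean FPKM (mapped fragments scaled by exon length and by the depth of the library) above 1 on at least 1 day. Ovaries of juvenile Kunming mice, an outbred strain, were compared on postnatal days (PD) 14, 15 and 16, the days over which the first wave of follicles forms an antrum. Each day had 3 RNA-Seq libraries, 9 in all, and neither treatment nor genetic change is given for any group, so that by their labels the groups differ in age alone. The study describes the material of each day as 3 biologically independent ovaries.

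By the deposited labels the tissue was ovary, whereas the material is entered as granulosa cells. All 24 oocyte markers examined, among them Gdf9, a growth factor of the oocyte, and Zp3, a protein of the zona pellucida, were tested, and their summed level was 1548 to 2164 FPKM. The libraries thus held oocyte RNA, whatever the label of the material. The 10 granulosa cell markers summed to 2814 to 3676 FPKM, most of it from Inha alone, at a mean of 2152 FPKM. In such bulk libraries, fewer oocytes and less of a transcript per oocyte cannot be told apart. The libraries held 20.4 to 28.7 M mapped fragments, a depth at which the least covered gene of the set, Khdc3, still had 615 to 994 fragments per library and Nlrp14 had 15300 to 31152.

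The subcortical maternal complex assembles in the growing oocyte and lies beneath the membrane of the egg and of the early embryo. It is encoded by maternal-effect genes: a mother that lacks a core component produces oocytes, but her embryos fail early. NLRP proteins share a nucleotide-binding domain, and nearly all carry leucine-rich repeats. Some members act as innate immune sensors, whereas a group of them in rodents is transcribed mainly in oocytes.

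Over the 9 libraries, the genes of the set lay at percentile 69.3 (Nlrp2) to 99.5 (Padi6) of the genes tested. Their summed FPKM was 1039 to 1267 on PD14, highest on PD15 (1331 to 1423) and 971 to 1058 on PD16. From PD14 to PD15, Nlrp5 rose from 90.8 ± 16.3 to 153 ± 9.36 FPKM (SD, n = 3), and it fell to 92.5 ± 9.55 on PD16. No other gene of the set passed the test between any of the days, although all 10 had a positive estimate on PD15 against PD14 and a negative one on PD16 against PD15. Without replicate 2 of PD14, 8 of the 10 were positive on PD15 against PD14. The summed level of oocyte markers was likewise highest on PD15, and against their mean Nlrp5 alone was called, on PD15 against PD14 and on PD16 against PD15. The latter call came where 40.9% of all genes were called higher, which makes the adjustment over all genes milder. Both calls of Nlrp5 depended on single libraries, as given with them.

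**Figure D1:**
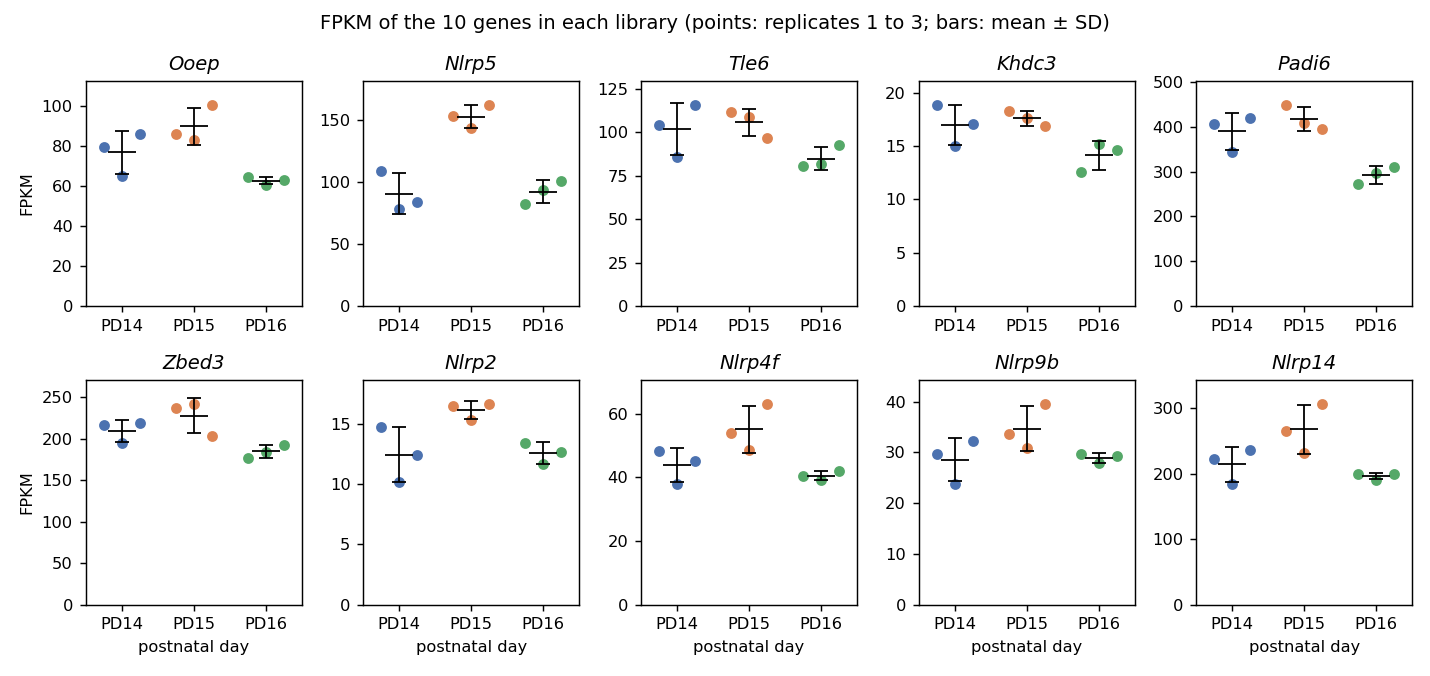
FPKM (vertical axes, from 0) of each gene on PD14, PD15 and PD16. Points are libraries, in the order of replicates 1 to 3, and bars are the mean ± SD of 3 libraries. The Nlrp5 libraries of PD15 (144 to 162 FPKM) lie above all those of PD14 and PD16 (78.7 to 109 FPKM), and in every panel the PD16 libraries lie below the PD15 libraries.

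The genes lie on 5 chromosomes of the mm10 (GRCm38) assembly, and 4 of the 5 NLRP genes are on chromosome 7. These are Nlrp5 at chr7:23385889-23441922 on the plus strand, Nlrp2 at chr7:5298547-5351035 on the minus strand, Nlrp9b at chr7:19991465-20073306 on the plus strand and Nlrp14 at chr7:107166990-107198102 on the plus strand. Nlrp4f lies at chr13:65177111-65205977 on the minus strand, and Zbed3 on the same chromosome at chr13:95323612-95337841 on the plus strand. Ooep and Khdc3 share chromosome 9, at chr9:78376109-78378725 on the minus strand and chr9:73101836-73104438 on the plus strand. Tle6 lies at chr10:81590904-81601073 on the minus strand and Padi6 at chr4:140727355-140742643 on the minus strand. All are annotated as protein coding in GENCODE M21, with a merged exon length of 2050 bases for Khdc3 to 4847 bases for Nlrp5.

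Parts of some genes cannot be told from other genes by sequence. Of the 50-base stretches of Khdc3 transcripts, 34.1% also occur in Gm20509, a gene that overlaps it by 790 bases on the same strand, so the Khdc3 level is uncertain to that extent. The share was 7.79% for Nlrp9b, partly with Nlrp9a, 6.55% for Nlrp5, chiefly with its pseudogene Nlrp5-ps, and 5.95% for Nlrp4f, chiefly with Nlrp4g. It was at most 2.39% for Nlrp2, Ooep and Tle6 and 0% for Padi6, Nlrp14 and Zbed3. Nlrp5-ps itself was at a mean of 0.46 FPKM and Nlrp4g at 0.367 FPKM.

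RefSeq windows of 250 bases before a start site (GRCm38.p6) were held for 9 of the genes, 13 windows in all, and not for Nlrp14. The windows of Nlrp5, Padi6 and Nlrp2 are shown because their start is the same in RefSeq and in GENCODE, and because these are the gene that was called and the genes with the highest and the lowest level. They were searched for CANNTG, the E-box that helix-loop-helix factors of the oocyte such as FIGLA bind, and for TAATTG, which homeobox factors such as NOBOX bind. Also searched were TGATTG, which is not taken here as a NOBOX site, and TATAAA, the TATA box. Other sites of these factors were not searched. Both strands were searched, and matches are in capitals. The Nlrp5 window is chr7:23385639-23385888, the Padi6 window chr4:140742644-140742893 and the Nlrp2 window chr7:5351036-5351285, each printed on the strand of its gene:
Nlrp5: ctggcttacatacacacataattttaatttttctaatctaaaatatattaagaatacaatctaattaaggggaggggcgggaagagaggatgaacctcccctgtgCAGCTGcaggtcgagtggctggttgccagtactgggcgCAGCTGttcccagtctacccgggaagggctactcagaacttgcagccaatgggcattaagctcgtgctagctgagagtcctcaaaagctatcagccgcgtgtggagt
Padi6: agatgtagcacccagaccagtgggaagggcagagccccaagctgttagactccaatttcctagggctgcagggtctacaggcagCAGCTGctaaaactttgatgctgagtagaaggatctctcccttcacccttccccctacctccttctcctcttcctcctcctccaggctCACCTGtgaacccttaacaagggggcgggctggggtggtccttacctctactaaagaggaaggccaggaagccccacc
Nlrp2: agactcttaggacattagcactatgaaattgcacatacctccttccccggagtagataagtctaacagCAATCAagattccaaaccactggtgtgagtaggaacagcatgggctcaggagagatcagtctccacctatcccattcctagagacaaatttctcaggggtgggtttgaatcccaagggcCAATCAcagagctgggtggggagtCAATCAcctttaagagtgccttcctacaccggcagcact
The Nlrp5 and Padi6 windows shown each held 2 matches to CANNTG, which reads alike on both strands, and none to the other motifs. A further Nlrp5 window, before the RefSeq start at position 23404102 of chromosome 7, held 2 matches to CANNTG and 2 to TATAAA. The Nlrp2 window held 3 matches to TGATTG, all as its reverse complement CAATCA, and none to the others. Among the 13 windows, 12 held CANNTG, 2 held TAATTG, 3 held TGATTG and 3 held TATAAA. Of 32851 mouse windows of this length, 66.2% held CANNTG, 7.17% TAATTG, 12.7% TGATTG and 12.4% TATAAA. These matches describe the letters of the windows and were not tied to the levels.

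In order of level per length, Padi6 came first at a mean of 367 FPKM over the 9 libraries. It was followed by Nlrp14 at 226, Zbed3 at 207, Nlrp5 at 112, Tle6 at 97.6, Ooep at 76.4, Nlrp4f at 46.5, Nlrp9b at 30.7, Khdc3 at 16.2 and Nlrp2 at 13.7 FPKM. Padi6 thus lay at percentile 99.5 of the genes tested and Nlrp2 at percentile 69.3. Neighbours in this order kept it in all 9 libraries, except Nlrp14 above Zbed3 and Nlrp5 above Tle6 (7 libraries each), and Tle6 above Ooep and Khdc3 above Nlrp2 (8 libraries each). These 4 pairs were therefore not separated in every library. Together the 10 genes made up 0.287% to 0.453% of all FPKM in a library, with 0.337% to 0.393% on PD14, 0.409% to 0.453% on PD15 and 0.287% to 0.341% on PD16.

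The core of the complex was considered first. Nlrp5 (also known as Mater) encodes a leucine-rich repeat protein of the core, without which embryos arrest after the first cleavage. It was at 109, 78.7 and 84.5 FPKM in replicates 1, 2 and 3 of PD14, at 153, 144 and 162 on PD15 and at 82.3, 93.9 and 101 on PD16. Every PD15 library was above every library of the other days, whereas PD14 and PD16 overlapped. The log2 change of FPKM + 1 was 0.76 from PD14 to PD15 (SE 0.13, 95% confidence interval 0.48 to 1.04, limma, adjusted p = 0.0377), a fold of 1.69. From PD15 to PD16 it was -0.72 (SE 0.13, interval -1.01 to -0.44, adjusted p = 0.0439), a ratio of 0.606. Between PD14 and PD16 the estimate was 0.04, with an interval of -0.25 to 0.32 and an adjusted p of 0.895. Over the 3 days at once, Nlrp5 was the only gene of the set that passed the F test of limma (adjusted p = 0.025), against 3.03% of all genes tested. By this test 0 genes of the set passed without replicate 3 of PD14, replicate 1, 2 or 3 of PD15 or replicate 1 of PD16. The same held without a filter on low values and with the replicate number as a block.

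With 3 libraries a day, the calls of Nlrp5 were near the threshold. The call of PD15 against PD14 was lost in limma without replicate 2 or 3 of PD14 (adjusted p = 0.0891 and 0.135), without replicate 1, 2 or 3 of PD15 (0.133, 0.0906 and 0.0875) and without replicate 2 of PD16 (0.0665), with a log2 change of 0.66 to 0.90 over the 9 omissions. That of PD16 against PD15 was lost without replicate 3 of PD14 (0.0677), without replicate 1, 2 or 3 of PD15 (0.137, 0.107 and 0.0946) and without replicate 1, 2 or 3 of PD16 (0.138, 0.1 and 0.072), with a log2 change of -0.79 to -0.64. Both calls were lost without a filter on low values (limma, adjusted p = 0.114 and 0.125) and with the replicate number as a block (0.0901 and 0.0888). With the libraries of the 2 days alone that on PD15 against PD14 was lost (0.0709), and without the intensity trend that on PD16 against PD15 (0.0524).

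Ooep (Floped), a small KH-domain protein that binds NLRP5 and TLE6 in the core, was at 79.3, 65.0 and 86.0 FPKM on PD14, at 85.9, 83.1 and 100.2 on PD15 and at 64.3, 60.6 and 62.8 on PD16. Its PD16 libraries were below all libraries of the other days, and PD14 and PD15 overlapped. The log2 change was 0.23 from PD14 to PD15 (adjusted p = 0.366), -0.28 from PD14 to PD16 (interval -0.52 to -0.04, adjusted p = 0.159) and -0.51 from PD15 to PD16 (interval -0.75 to -0.27, adjusted p = 0.0687). The latter missed the threshold in limma, but passed it without replicate 2 of PD14 (adjusted p = 0.0424). The estimate from PD14 to PD15 ran from 0.11 to 0.31 with libraries left out.

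Tle6, a relative of the Groucho corepressors and the third protein of the core, was at 104, 85.8 and 116 FPKM on PD14, at 112, 109 and 96.9 on PD15 and at 80.5, 81.6 and 92.8 on PD16. PD14 overlapped both other days, and the PD16 libraries were below those of PD15. The log2 change was 0.06 on PD15 (interval -0.19 to 0.32) and -0.31 from PD15 to PD16 (adjusted p = 0.242). Khdc3 (Filia), a KH-domain protein that joins the complex and is known for a part in genome stability, was at 18.8, 15.0 and 17.1 FPKM on PD14. It was at 18.3, 17.6 and 16.9 on PD15 and at 12.6, 15.2 and 14.6 on PD16. Its PD15 libraries lay within the range of PD14, with a log2 change of 0.05, and above those of PD16, with a log2 change of -0.30 from PD15 to PD16 (adjusted p = 0.169). Ooep, Tle6 and Khdc3 were thus not called between any days.

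The partners of the complex came next. Padi6, the gene of the set with the highest level and a member of the peptidylarginine deiminase family needed for the cytoplasmic lattices of the egg, was at 406, 342.9 and 419.8 FPKM on PD14, at 448, 409 and 396 on PD15 and at 271, 298 and 311 on PD16. PD14 and PD15 overlapped, and every PD16 library was below every earlier library. The log2 change was 0.10 on PD15 (adjusted p = 0.692), -0.41 from PD14 to PD16 (interval -0.64 to -0.17, adjusted p = 0.0628) and -0.51 from PD15 to PD16 (interval -0.75 to -0.27, adjusted p = 0.0678). None of these passed the test in limma, and the change from PD14 to PD16 did so without replicate 2 of PD14 (-0.49, adjusted p = 0.0481). The estimate on PD15 against PD14 ran from 0.01 to 0.16 with libraries left out. Zbed3, a zinc finger protein that binds the complex and bears on the position of the spindle, was at 216, 195 and 218 FPKM on PD14, at 237, 242 and 203 on PD15 and at 177, 184 and 193 on PD16. Its PD16 libraries were likewise the lowest, with a log2 change of -0.18 from PD14 and -0.30 from PD15 (adjusted p = 0.263 and 0.171).

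The other NLRP genes were considered next. Nlrp14, which is transcribed in oocytes and also in the testis, was at 223, 185 and 236 FPKM on PD14, at 264, 232 and 307 on PD15 and at 199, 191 and 199 on PD16. PD15 overlapped PD14 and lay above PD16, whose 3 libraries were within 8.84 FPKM of each other. The log2 change was 0.32 on PD15 (adjusted p = 0.267) and -0.44 from PD15 to PD16 (adjusted p = 0.144). Nlrp4f, a rodent NLRP gene whose protein is found with the complex, was at 48.2, 37.9 and 45.2 FPKM on PD14, at 53.9, 48.5 and 63.1 on PD15 and at 40.5, 39.1 and 41.9 on PD16. The lowest PD15 library was just above the highest of PD14, and the log2 change was 0.33 on PD15 (adjusted p = 0.209) and -0.43 from PD15 to PD16 (adjusted p = 0.112).

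Nlrp9b, which besides the oocyte is known from the intestinal epithelium, was at 29.8, 23.8 and 32.2 FPKM on PD14, at 33.6, 30.9 and 39.6 on PD15 and at 29.7, 27.9 and 29.2 on PD16. PD15 and PD14 overlapped. Its estimate from PD15 to PD16, -0.25 (interval -0.51 to 0.01, adjusted p = 0.373), was the smallest of the set. Nlrp2, a maternal-effect gene of the oocyte and early embryo, was at 14.7, 10.1 and 12.4 FPKM on PD14, at 16.5, 15.3 and 16.6 on PD15 and at 13.4, 11.6 and 12.7 on PD16. All PD15 libraries were above those of the other days, with a log2 change of 0.37 on PD15 (interval 0.11 to 0.62, adjusted p = 0.177) and -0.34 from PD15 to PD16 (adjusted p = 0.206).

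**Figure D2:**
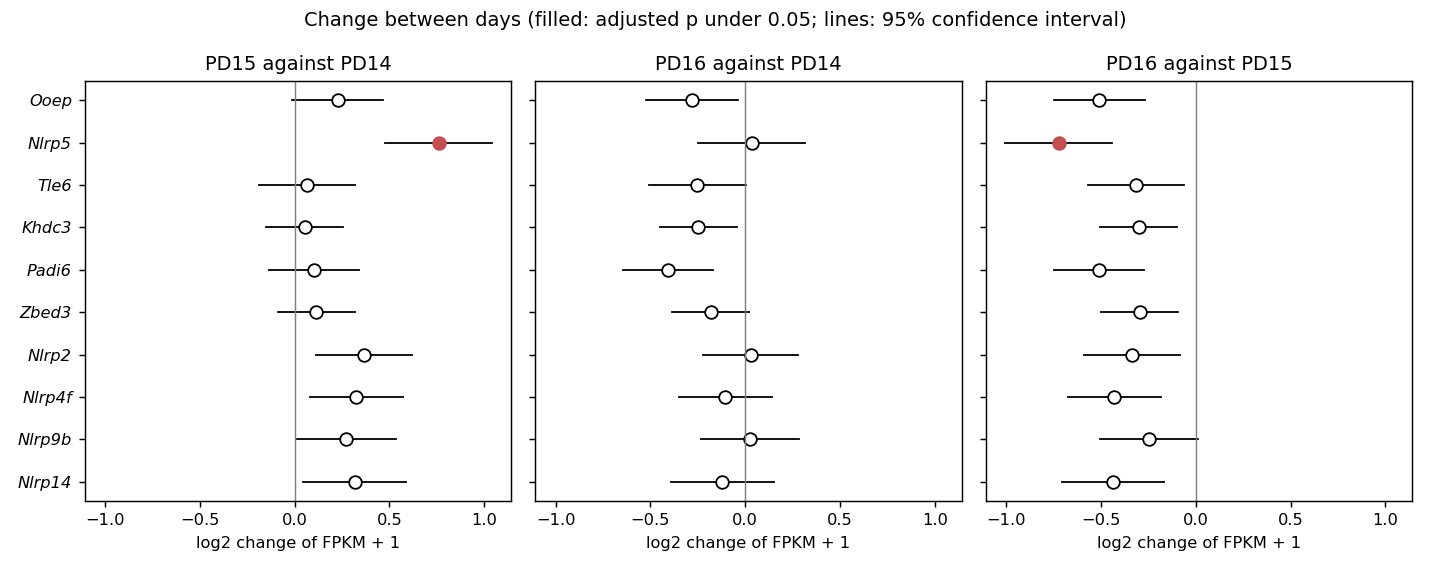
Log2 change of FPKM + 1 (horizontal axes) of each gene between the days named above each panel, from limma with 9 libraries. Lines are 95% confidence intervals and filled points have an adjusted p under 0.05. Nlrp5 is filled on PD15 against PD14 (0.76) and on PD16 against PD15 (-0.72), and no point is filled on PD16 against PD14.

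Over the set, PD15 against PD14 gave 10 positive estimates of 10, with a median log2 change of 0.25, where 51.9% of all genes tested were positive and their median was 0.01. The 1 gene called was higher, against 0.336% of all genes called higher and 0.342% called lower. Without replicate 2 of PD14, 8 were positive, Khdc3 (-0.028) and Tle6 (-0.054) turned negative, and the median was 0.13. In 3 of 10 genes (Nlrp5, Nlrp2 and Nlrp4f) every PD15 library was above every PD14 library, against 10.4% of all genes. An unadjusted p under 0.05 was reached by 5 of the 10, the NLRP genes, against 7.22% of all genes in this direction. PD16 against PD15 gave 10 negative estimates of 10, where 53.1% of all genes were positive, with a median of -0.38 against 0.01 for all genes. The 1 gene called was lower, against 0.297% of all genes, and 9 of 10 were lower at an unadjusted p under 0.05, against 7.34% of all genes. In all 10 genes every PD16 library was below every PD15 library, against 9.73% of all genes. These comparisons share the PD15 libraries, so the courses up and down are not independent of each other.

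PD16 against PD14 gave 3 positive and 7 negative estimates, with a median of -0.15, where 52.2% of all genes were positive. Without replicate 2 of PD14 all 10 were negative, with a median of -0.23. In limma 0 of 10 genes were called, against 2.36% of all genes called higher and 1.89% called lower, while 3 of 10 (Ooep, Khdc3 and Padi6) were lower at an unadjusted p under 0.05, against 11% of all genes. The PD16 libraries were below those of PD14 without overlap in Ooep, Padi6 and Zbed3, against 13.5% of all genes. On PD14, replicate 2 was the lowest PD14 library in all 10 genes, and 0 of 10 were above their mean over all libraries in it, as in each library of PD16. In replicates 1 and 3 of PD14, 8 and 7 genes were above their mean, and on PD15 at least 9.

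The summed level of the oocyte markers was 1581 to 1997 FPKM on PD14, with the lowest value in replicate 2, then 2020 to 2164 on PD15 and 1548 to 1636 on PD16. On PD15 against PD14, 20 of the 24 markers had a positive estimate (median 0.18), and on PD16 against PD15 all 24 had a negative one (median -0.28), with 16 of 24 below PD15 without overlap, against 9.73% of all genes. In limma 0 of the 24 were called on PD15 against PD14, with 8 higher at an unadjusted p under 0.05 (7.22% of all genes). On PD16 against PD14, 1 was called higher (2.36% of all genes), and on PD16 against PD15, 1 was called lower (0.297%). Zp3 was at 349 ± 38.5, 401 ± 22.6 and 276 ± 12.6 FPKM (SD, n = 3) on the 3 days, and Gdf9 at 242 ± 30.6, 260.2 ± 20.2 and 212 ± 7.68. Of the markers, Zp2, another zona pellucida protein, fell on PD16 against PD15 (log2 change -0.61, limma, adjusted p = 0.0427), and Bmp15, a growth factor of the oocyte, rose on PD16 against PD14 (0.39, adjusted p = 0.0331), with an estimate of -0.0041 on PD16 against PD15. Of the 9 omissions of a library, the call of Zp2 held in 1 (without replicate 2 of PD14, adjusted p 0.0295 to 0.133 over all 9) and that of Bmp15 in 3 (without replicate 1 or 3 of PD15 or replicate 3 of PD16, 0.029 to 0.113). The granulosa cell markers summed to 3000 to 3676 FPKM on PD14, 2814 to 3239 on PD15 and 2922 to 3466 on PD16. Of these 10 markers, 3 were above 0 on PD15 against PD14 (median -0.15) and 0 were called in limma. At an unadjusted p under 0.05, 2 were higher (7.22% of all genes) and 3 lower. The share of all genes lower at this p is not given here, so the 3 cannot be set against it. In the other comparisons, 1 was called higher and 1 lower on PD16 against PD14 (2.36% and 1.89% of all genes), and 4 were above 0 on PD16 against PD15 (median -0.06). The markers of blood cells summed to 107 to 148, 48.6 to 65.5 and 63.5 to 118 FPKM. On PD15 against PD14, 5 of the 6 tested were below 0 (median -0.97). Of these, Hba-a1 was called lower (log2 change -1.35, limma, adjusted p = 0.0381), where 0.342% of all genes were. On PD16 against PD15, 4 of the 6 were above 0 (median 0.32) and 0 were called. Theca and interstitial cell markers summed to 1559 to 2191, 1134 to 1716 and 1166 to 1581 FPKM. Most of this was Hsd3b1 alone, at a mean of 1785, 1291 and 1273 FPKM on the 3 days. Of the 6 markers, 5 were below 0 on PD15 against PD14 (median log2 change -0.43). In the same comparison, 1 of 5 stromal markers (median -0.09), 0 of 4 endothelial markers (-0.10), 1 of 4 epithelial markers (-0.09) and 0 of 1 tested fat and muscle markers (-0.60) were above 0. The last, Plin1, was called lower there and on PD16 against PD14 (limma, adjusted p = 0.0377 and 0.0294). Epithelial Krt19 and Lgals7 were called lower on PD16 against PD14 (0.0335 and 0.0239), where 1.89% of all genes were. Both were below PD15 without overlap on PD16, but not called. The calls of Hba-a1, Plin1, Krt19 and Lgals7 were not tried with libraries left out. The part of the share of oocyte RNA in the courses of the set was not tested apart from the comparison with these markers.

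To set the genes against other oocyte transcripts of the same library, the mean log2 level of the 24 markers was taken off. Nlrp5 was then at 1.23, 0.99 and 0.79 above the marker mean on PD14, at 1.64, 1.55 and 1.60 on PD15 and at 1.05, 1.18 and 1.26 on PD16 (log2). The PD15 libraries again lay above all others. The relative log2 change was 0.59 from PD14 to PD15 (SE 0.12, interval 0.34 to 0.85, limma, adjusted p = 0.0241), where 0.155% of all genes were called higher, and -0.43 from PD15 to PD16 (interval -0.69 to -0.18, adjusted p = 0.0243), where 0.426% were called lower. From PD14 to PD16 it was 0.16 (interval -0.09 to 0.41, adjusted p = 0.425). The latter ran from 0.05 to 0.28 with libraries left out, and was 0.33 with the marker median as reference (limma, adjusted p = 0.0583). Leaving out a library ended the call on PD15 against PD14 for replicates 2 and 3 of PD14 (adjusted p = 0.0947 and 0.0583) and replicates 1, 2 and 3 of PD15 (0.0898, 0.0521 and 0.0637). It ended that on PD16 against PD15 for replicates 1, 2 and 3 of PD15 (0.0567, 0.054 and 0.0648) and replicates 1 and 2 of PD16 (0.0935 and 0.0654). The unadjusted p of Nlrp5 on PD16 against PD15 was 0.00257 in limma, against 0.000232 before the marker mean was taken off. With 40.9% of all genes called higher in this fit, the adjustment over all genes was milder. In the first fit a p of 0.00229 (Khdc1b, limma) had an adjusted p of 0.101. The adjusted p-values of these fits therefore cannot be compared.

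With the marker mean as reference, none of the other 9 genes was called, where 1.56% of all genes were called lower on PD15 against PD14. On PD16 against PD14, 2.12% of all genes were called higher and 0.258% lower, and on PD16 against PD15 40.9% were called higher, as the marker mean itself was lower on PD16. Padi6 had a relative log2 change of -0.06 on PD15 against PD14, of -0.28 on PD16 against PD14 (interval -0.51 to -0.05, limma, adjusted p = 0.167) and of -0.22 on PD16 against PD15 (adjusted p = 0.105). Ooep had 0.06, -0.16 and -0.22, and its last value (interval -0.42 to -0.02, adjusted p = 0.0695) passed the threshold without replicate 2 of PD14 (adjusted p = 0.0407). The relative estimates of the 10 genes were positive for 6 on PD15 against PD14, for 5 on PD16 against PD14 and for 1 on PD16 against PD15.

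**Figure D3:**
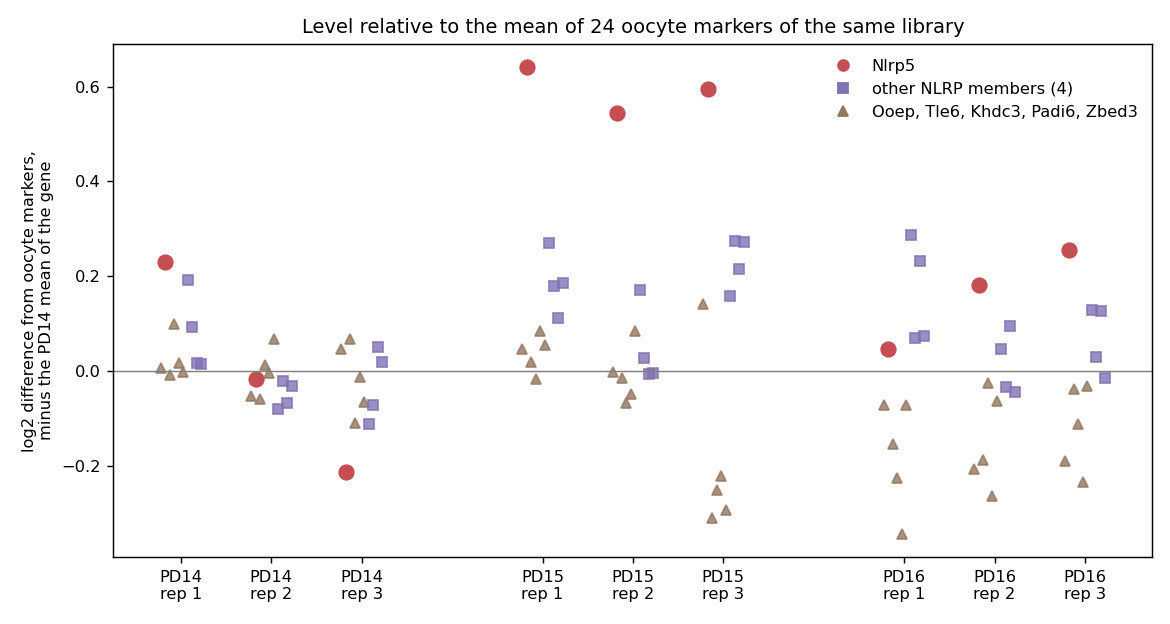
Log2 level of each gene minus the mean of 24 oocyte markers in the same library, shown as the difference from the gene's own mean over the PD14 libraries (vertical axis), for the 9 libraries (horizontal axis). Circles are Nlrp5, squares the other 4 NLRP genes and triangles Ooep, Tle6, Khdc3, Padi6 and Zbed3. The Nlrp5 circles of PD15 lie above every other point.

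Within the complex, the proportion of Nlrp5 to its partner Ooep was 1.38, 1.21 and 0.982 on PD14, 1.79, 1.73 and 1.62 on PD15 and 1.28, 1.55 and 1.61 on PD16, as ratios of FPKM. The PD15 ratios were above the PD14 ratios without overlap, whereas replicate 3 of PD15 and replicate 3 of PD16 almost met. The ratio of Nlrp5 to Nlrp14 was 0.490, 0.426 and 0.358 on PD14, 0.580, 0.619 and 0.529 on PD15 and 0.413, 0.493 and 0.509 on PD16. Here too every PD15 library was above every other library.

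The estimates of the NLRP genes and of the other genes of the set are given side by side, without a test of their difference. On PD15 against PD14 the log2 changes of the 5 NLRP genes ran from 0.27 to 0.76 (median 0.33) and those of the other 5 from 0.05 to 0.23 (median 0.10). On PD16 against PD14 they ran from -0.12 to 0.04 (median 0.03) and from -0.41 to -0.18 (median -0.25). With libraries left out, the median on PD15 against PD14 ran from 0.23 to 0.41 for the NLRP genes and from 0.01 to 0.16 for the others. It was lowest for the others (0.01, range -0.05 to 0.11) without replicate 2 of PD14, was 0.05 and 0.07 without replicates 1 and 2 of PD15 and 0.16 without replicate 3 of PD14, and the ranges overlapped without replicate 3 of PD15 (0.18 to 0.72 and 0.08 to 0.19). On PD16 against PD14 that of the NLRP genes ran from -0.10, without replicate 2 of PD14, to 0.06, without replicate 1 of PD14, and was also negative without replicate 3 of PD14 (-0.0090) and replicates 1 and 3 of PD16 (-0.015 and -0.032). On PD16 against PD15 the ranges overlapped, from -0.72 to -0.25 (median -0.43) and from -0.51 to -0.30 (median -0.31). The GC content of the exons was 41.4% to 46.9% in the NLRP genes, 46.3% in Ooep and 53.3% to 58.0% in Tle6, Khdc3, Padi6 and Zbed3. The part of base composition in these estimates was not tested beyond the values with the GC trend taken off.

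The libraries themselves differed in how levels over all genes followed GC content. The slope, in log2 units per 10 percentage points of GC, was 0.03, 0.06 and 0.06 in replicates 1, 2 and 3 of PD14, 0.02, 0.0067 and -0.07 on PD15 and -0.08, 0.0015 and -0.03 on PD16. The mean log2 level of the NLRP genes minus that of the other genes was -0.93, -1.05 and -1.07 on PD14, -0.78, -0.86 and -0.53 on PD15 and -0.70, -0.82 and -0.79 on PD16. Replicate 3 of PD15 was the highest PD15 library for all 5 NLRP genes and Ooep and the lowest for Tle6, Khdc3, Padi6 and Zbed3. The PD14 libraries have the 3 highest slopes, so slope and day are largely confounded, and their parts cannot be told apart here.

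With the GC trend taken off each library, an alternative chosen after seeing the data, the difference was -0.90, -0.992 and -0.995 on PD14, -0.76, -0.85 and -0.62 on PD15 and -0.79, -0.82 and -0.82 on PD16. The PD14 libraries were still the lowest. The medians of the log2 change on PD15 against PD14 were then 0.26 for the NLRP genes and 0.13 for the others, with ranges of 0.21 to 0.74 and 0.10 to 0.20. These ranges still did not overlap. On PD16 against PD14 all 10 estimates were negative, those of Nlrp5, Nlrp2 and Nlrp9b having changed sign. The medians there were -0.05 and -0.20, and the ranges, apart before, overlapped (-0.20 to -0.00080 and -0.38 to -0.14). Nlrp5 was called as before on PD15 against PD14 (0.74, limma, adjusted p = 0.0418) and on PD16 against PD15 (-0.74, adjusted p = 0.0387), and Ooep also passed on PD16 against PD15 (-0.52, adjusted p = 0.0497).

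**Figure D4:**
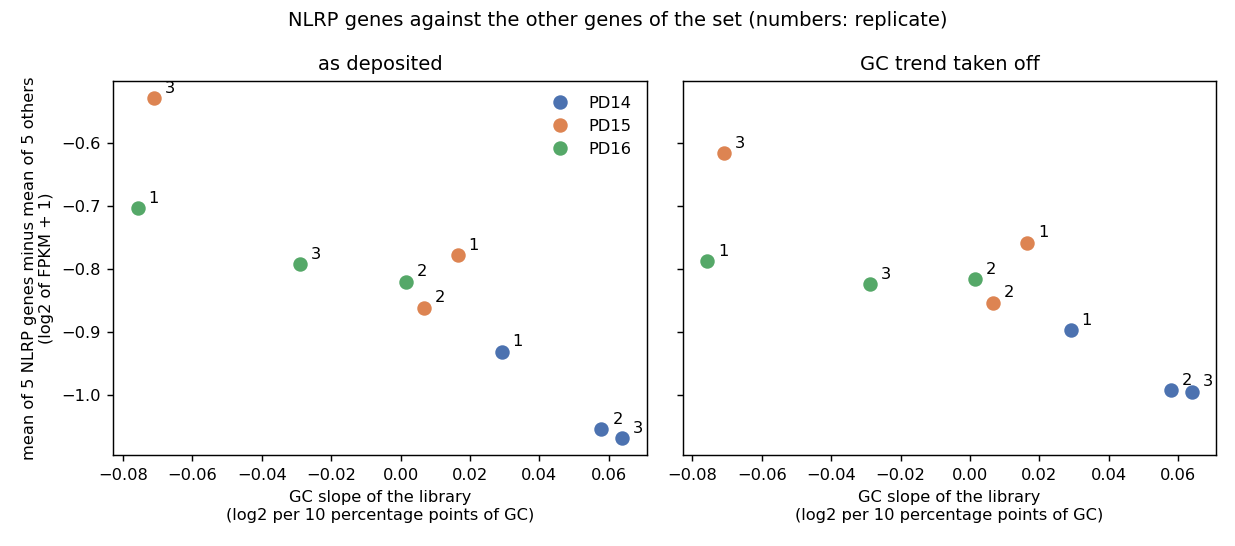
Mean log2 level of the 5 NLRP genes minus that of the other 5 genes (vertical axes) against the GC slope of the library (horizontal axes), as deposited and with the GC trend taken off. Points are libraries, labelled by replicate. Replicate 3 of PD15 (-0.53) and replicate 1 of PD16 (-0.70) have the highest differences and the lowest slopes in the left panel, and replicates 2 and 3 of PD14 the reverse.

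Of 16 other NLRP genes, all were listed, 7 were tested and 2 (Nlrp4d and Nlrp12) were listed at 0 in every library. The immune sensor Nlrp3 was at a mean of 0.116 FPKM and was not tested. The 3 highest were Nlrp4a at 19.4, Nlrp9a at 14.8 and Nlrp4b at 13.8 FPKM over the 9 libraries. On PD15 against PD14, 6 of the 7 had a positive estimate (median 0.37) and in limma 0 were called, with 5 higher at an unadjusted p under 0.05 (7.22% of all genes) and 5 above PD14 without overlap (10.4% of all genes). Nlrp4b had a log2 change of 0.48 (adjusted p = 0.0736), Nlrp9a of 0.42 (adjusted p = 0.106) and Nlrp4a of 0.37 (adjusted p = 0.138). The estimate of Nlrp4e, a low gene at a mean of 3.51 FPKM, was 0.76 on PD15 (adjusted p = 0.0626) on the scale of FPKM + 1, which understates the change of a low gene, its FPKM being 2.24 ± 0.768 on PD14 and 4.39 ± 0.434 on PD15 (SD, n = 3). On PD16 against PD14 all 7 had a positive estimate (median 0.15), that of Nlrp4e being 0.62, at the threshold but not past it. On PD16 against PD15, 6 of the 7 had a negative estimate (median -0.21) and 0 were called, with 1 higher and 3 lower at an unadjusted p under 0.05 (6.78% and 7.34% of all genes).

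The 1 call in this list was Nlrp10, an NLRP protein without the leucine-rich repeats, which rose from PD14 to PD16, where 2.36% of all genes were called higher. It was low, at 1.16, 1.01 and 0.959 FPKM on PD14, 0.872, 1.09 and 1.06 on PD15 and 2.004, 1.52 and 2.03 on PD16. The PD16 libraries were above all others, with a log2 change of 0.48 from PD14 (limma, adjusted p = 0.0431) and 0.50 from PD15 (adjusted p = 0.0726). The call from PD14 held in 1 of 9 omissions of a library, that of replicate 2 of PD16, with an adjusted p of 0.0452 to 0.144 over all 9.

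Of 16 relatives of the other genes, 11 were tested and 1 (Zbed6) was listed at 0. Dppa5a, a KH-domain gene of the same family as Ooep and Khdc3, was at 134, 112 and 148 FPKM on PD14, 172, 155 and 197 on PD15 and 100.4, 96.2 and 106 on PD16. It fell from PD15 to PD16 (log2 change -0.78, interval -1.05 to -0.51, limma, adjusted p = 0.0312). Khdc1a, another KH-domain gene of the oocyte, fell as well, from 35.9 ± 2.49 to 25.3 ± 1.24 FPKM (SD, n = 3; log2 change -0.48, adjusted p = 0.0494). Its neighbour in family Khdc1b was at 100.2 ± 14.7, 152 ± 7.14 and 107 ± 12.9 FPKM on the 3 days, with a log2 change of 0.60 on PD15 that missed the threshold (adjusted p = 0.0683). Tle1, a Groucho corepressor, rose from 8.62 ± 0.856 FPKM on PD14 to 12.3 ± 1.15 on PD16 (0.47, adjusted p = 0.0293). Aes, a short Groucho relative and with Dppa5a and Khdc1b among the 3 highest of the list, was at 129.9 ± 8.69, 115 ± 7.15 and 99.5 ± 10.9 FPKM. On PD16 against PD15, 2 of the 11 were called lower (0.297% of all genes) and 5 were lower at an unadjusted p under 0.05 (7.34%), and on PD16 against PD14 1 was called higher (2.36%). No relative was called on PD15 against PD14 (0.336% of all genes higher and 0.342% lower), where 3 of 11 had an unadjusted p under 0.05, all higher (7.22% of all genes). Of the 9 omissions of a library, the call of Dppa5a held in 4 (without replicate 1, 2 or 3 of PD14 or replicate 2 of PD15, adjusted p 0.0261 to 0.108 over all 9) and that of Khdc1a in 2 (without replicate 1 or 2 of PD14, 0.0295 to 0.154). That of Tle1 held in 5 (without replicate 2 of PD14, any library of PD15 or replicate 2 of PD16, 0.0339 to 0.0916).

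The genes whose log2 level over the 9 libraries was most like the mean course of the set were found by Pearson's r with the average of the 10 standardised courses. They were Zar1 (r = 0.992), an unnamed transcript (0.988), Khdc1a (0.987), Npm2 (0.984), Pecr (0.982), Oas1e (0.979), AU015836 (0.969) and Pkd2l2 (0.965). Of these, Zar1 and Npm2 are also among the oocyte markers. Zar1 was at 56.6, 46.3 and 58.7 FPKM on PD14, at 64.8, 61.7 and 66.0 on PD15 and at 46.6, 49.0 and 49.5 on PD16. It thus shared with the set the low replicate 2 of PD14, the high PD15 libraries and the low PD16 libraries. The points are libraries that share a depth and a share of oocyte RNA for all genes, so these coefficients are descriptions.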

How the data were processed

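Ovarian RNA was extracted with TRIzol, and libraries were prepared with the NEBNext Ultra kit, which does not mark strand, and sequenced on an Illumina HiSeq platform. The authors deposited 9 tables of FPKM, 1 per library. The submitters' processing notes name HISAT2 2.0.5 and mm10, while the counter and annotation are not given in the sources used here. The groups are those of the labels, 3 libraries per day, and no 2 libraries were identical. P-values set the differences between days against the spread between these libraries, taken over the 3 days and moderated by limma over all genes tested.

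Low FPKM were whole multiples of the value of 1 fragment for 93.4% to 93.8% of values up to 50 fragments (tolerance 0.02), with exon lengths from GENCODE M21 (GRCm38), which gave the depths. Values were analysed as log2(FPKM + 1) with limma 3.58.1 in R 4.3.3, with an intensity trend and all 9 libraries in 1 model. Tested were the 15495 genes whose FPKM averaged over 1 in the libraries of some day, with Benjamini-Hochberg adjustment over all of them and a threshold of 0.05. Fold changes are on the FPKM + 1 scale, which understates those of low genes. A second fit took off the mean of 24 oocyte markers in each library. The method was tested on simulated data. Figures and sequences were made with Python 3.11.15, pandas 2.3.3, NumPy 2.4.6 and Matplotlib 3.10.9.

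The genes and lists were chosen with earlier results of these data known. Named besides the 10 genes were Gdf9 and Zp3, in each family list the genes called and the 3 with the highest level, and the 8 genes most alike in course. Zp2, Bmp15, Nlrp3, Nlrp4e, Nlrp5-ps, Nlrp4g, Inha, Hsd3b1, Hba-a1, Plin1, Krt19, Lgals7 and the genes listed at 0 were named after their values were seen. Other lists covered stromal, endothelial, epithelial, and fat and muscle markers. Alternatives were other pseudocounts (0.1 and 5), filters, scalings, variance models, oocyte references, the 2 days compared only, a replicate block and each library left out. Taking off each library's trend with GC content (known for 94.8% of genes tested) or exon length was added after seeing the data.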

Additional observations from a re-analysis of the deposited data

How the results depend on the processing

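The signs of Nlrp5 on PD15 against PD14 and on PD16 against PD15 held in all 21 alternatives, and its calls in 12 and 11 of them. Without a filter on low values, 0 genes of the set were called on PD15 against PD14, on PD16 against PD15 and by the F test. Nlrp5 then had an adjusted p of 0.114 and 0.125, with 33957 genes tested. With the 2 days compared only, 0 were called on PD15 against PD14 (Nlrp5 0.0709). Without the intensity trend, 0 were called on PD16 against PD15 (Nlrp5 0.0524) and 2 by the F test. With the GC trend taken off, 2 were called on PD16 against PD15 and 2 by the F test, and with the length trend taken off 2 and 3. In the fit relative to the oocyte markers, with their median as reference, 1 gene of the set was called on PD16 against PD14. It was not Nlrp5 (limma, adjusted p = 0.0583). The calls of Dppa5a, Tle1, Bmp15, Zp2, Khdc1a and Nlrp10, tried in the same way after seeing the data, held in 15, 14, 13, 12, 9 and 9 of 21 alternatives, with the sign kept in all. The cause of these differences was not tested.

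Leaving out each library in turn, the set had 0 to 1 genes called on PD15 against PD14, 0 to 1 on PD16 against PD14, 0 to 2 on PD16 against PD15 and 0 to 2 by the F test, where the count was 0 without replicate 3 of PD14, any PD15 library or replicate 1 of PD16 and 2 without replicate 2 of PD14. Relative to the oocyte markers it had 0 to 1, 0 to 0 and 0 to 2. Some uncalled estimates near 0 changed sign. With the GC trend taken off, PD16 against PD14 gave -0.00080 for Nlrp5, -0.029 for Nlrp2 and -0.053 for Nlrp9b. With libraries left out, PD16 against PD14 ran from -0.060 to 0.18 for Nlrp5, from -0.10 to 0.15 for Nlrp2 and from -0.10 to 0.11 for Nlrp9b, and PD15 against PD14 from -0.028 to 0.13 for Khdc3 and from -0.054 to 0.16 for Tle6. Relative to the markers, Padi6 on PD15 against PD14 ran from -0.14 to 0.017 with libraries left out and was 0.0041 with the marker median, Ooep on PD16 against PD14 was 0.0081 with the marker median, and Ooep on PD15 against PD14 was -0.0040 with Gdf9, Bmp15, Zp1, Zp2 and Zp3 alone as reference.

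Same-numbered libraries of different days had correlated deviations in 2 of 9 pairs above 0.1 (r -0.214 to 0.159). Pairs of different numbers ran from r = -0.196 (replicate 2 of PD14 with replicate 3 of PD15) to 0.211 (replicate 3 of PD15 with replicate 1 of PD16). Such weak values over all genes cannot decide whether the numbers pair the libraries. With the replicate block, 0 genes of the set were called on PD15 against PD14, on PD16 against PD15 and by the F test, and Nlrp5 had an adjusted p of 0.0901 and 0.0888. Over all genes, the calls on PD15 against PD14, PD16 against PD14 and PD16 against PD15 were 105, 659 and 113, and with the block 24, 227 and 56. They were 29, 172 and 24 without a filter, 46, 323 and 94 with the 2 days compared only, and 3 to 92, 92 to 660 and 14 to 125 with libraries left out. With a mean FPKM above 1 required on all days, 58 genes were called on PD15 against PD14. All values of the set rest on at least 615 fragments per gene and library, and on 3 libraries a day.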
